A study of Homo sapiens with 6 samples.

Results

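The genes described here are the ligands and receptors of the epidermal growth factor (EGF) family that were measured after knockdown of Smyca, a long non-coding RNA (lncRNA), in the breast cancer cell line MDA-MB-231. They are 10 of the 58302 genes in the count tables and were chosen by name. They comprise 6 ligand genes (AREG, EREG, HBEGF, TGFA, BTC and NRG1), 3 receptor genes (EGFR, ERBB2 and ERBB3) and ERRFI1, which encodes an inhibitor of the receptors. All 10 symbols matched an Ensembl identifier of the files. RNA was sequenced from 3 repeats of cells that stably expressed a control shRNA and 3 repeats of cells that stably expressed Smyca shRNA #1 from a lentiviral vector. All libraries came from this 1 cell line, and no other treatment of the cells is given in the labels. A single shRNA was sequenced, so the loss of Smyca and other effects of that shRNA cannot be told apart. The study calls them biological repeats, and whether they were transduced separately is not given in the sources used here. The p-values below compare the difference between the groups with the spread between these libraries.

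EGF-family ligands are made as precursors in the cell membrane, from which proteases called sheddases release the soluble factor. Amphiregulin (AREG), epiregulin (EREG), heparin-binding EGF (HBEGF), transforming growth factor alpha (TGFA) and betacellulin (BTC) bind the EGF receptor, whereas neuregulin 1 (NRG1) binds ERBB3 and ERBB4. Bound receptors form dimers and activate the RAS-ERK and PI3K pathways. ERBB2 has no known ligand and ERBB3 has little kinase activity, so both act mainly as partners in dimers. ERK signaling induces the genes of several ligands as well as ERRFI1 (also called MIG6), which binds the receptors' kinase domain and closes a negative feedback loop. In basal-like breast cancer cells, this family is known for autocrine growth and invasion.

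Total counts ranged from 14999307 to 16501085 per library. Smyca is listed by RefSeq as MIR23AHG, and its level was 24.99, 19.5 and 21.96 normalized CPM (counts scaled to the library size, after correction for composition) in control repeats 1, 2 and 3 and 10.5, 6.97 and 5.61 in the knockdown repeats. Its groups did not overlap, with a log2 ratio of control over knockdown of 1.53 ± 0.26 (SE) and an adjusted p of 0.111 in edgeR's quasi-likelihood test. All 8 markers fixed for a mesenchymal breast line were present, VIM at 71.2 to 305 and ZEB1 at 6.22 to 12.9 normalized CPM. However, genes from a list of general epithelial, gut and liver markers were present too. The general epithelial genes CDH1 and EPCAM were at 71.5 to 300 and 236 to 336 normalized CPM. Of the gut and liver genes, VIL1 was at 220 to 501, HNF4A at 65.4 to 194 and CDX2 at 6.08 to 11.1 normalized CPM. Other genes of the same list were not, with CDX1, AFP and TTR at 0 and KRT20, ALB and APOA1 at 6 counts or fewer in every library. The luminal markers ESR1, PGR and FOXA1 were at or near 0. The others of that list were detected in every library, KRT8 at 4249 to 7408, KRT18 at 987 to 1379 and GATA3 at 1.25 to 3.86 normalized CPM. Whether the cells were as labelled was not tested, and the label is used here as given. In control repeat 2, the deposited FPKM values did not follow the deposited counts, as they did in the other 5 libraries. The whole reads behind those FPKM values resembled control repeat 3 (r = 0.996 across 13476 genes) more than the count column of control repeat 2 (r = 0.961). Which column holds control repeat 2 could not be settled. Levels, shares, correlations and list sums below use the count column, and log2 ratios from the other column are given for HBEGF, TGFA, BTC, EGFR, ERBB2 and ERRFI1.

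Among the ligands, AREG and EREG lie next to each other on chromosome 4. In GRCh38, as annotated by GENCODE release 44, EREG spans 74365145 to 74388749 and AREG spans 74445136 to 74455005, both on the plus strand with 56386 bases between them. BTC lies on the same chromosome from 74744759 to 74794523 on the minus strand, 289753 bases from AREG. HBEGF spans 140332843 to 140346603 of chromosome 5 and TGFA spans 70447284 to 70554193 of chromosome 2, both on the minus strand. EGFR spans 55019017 to 55211628 of chromosome 7, ERBB2 spans 39687914 to 39730426 of chromosome 17 and ERBB3 spans 56076799 to 56103505 of chromosome 12, all on the plus strand. ERRFI1 spans 8004404 to 8026309 of chromosome 1 on the minus strand.

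Start sites in RefSeq (GRCh38.p14) gave windows for 8 of the 10 genes, and ERBB3 and NRG1 were not used here. The 250 bases before the start are printed for AREG, EREG, HBEGF and ERRFI1, because the 2 neighbouring ligands differed in their ratios and the other genes had the largest ratios among the members. Each is written 5′ to 3′ on the strand of its gene, in lower case, and capitals mark the cAMP response element (CRE). AREG is at chr4:74444886-74445135 on the plus strand, EREG at chr4:74364895-74365144 on the plus strand, HBEGF at chr5:140346604-140346853 on the minus strand and ERRFI1 at chr1:8026310-8026559 on the minus strand.
AREG: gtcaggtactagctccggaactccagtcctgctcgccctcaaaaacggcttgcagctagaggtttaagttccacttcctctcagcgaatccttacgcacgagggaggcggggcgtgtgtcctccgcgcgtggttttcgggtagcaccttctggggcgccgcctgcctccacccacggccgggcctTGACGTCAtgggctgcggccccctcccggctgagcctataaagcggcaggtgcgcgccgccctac
EREG: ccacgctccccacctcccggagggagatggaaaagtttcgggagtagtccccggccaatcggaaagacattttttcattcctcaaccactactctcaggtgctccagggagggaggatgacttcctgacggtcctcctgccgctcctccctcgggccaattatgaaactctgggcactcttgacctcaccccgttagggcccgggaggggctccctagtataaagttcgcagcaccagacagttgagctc
HBEGF: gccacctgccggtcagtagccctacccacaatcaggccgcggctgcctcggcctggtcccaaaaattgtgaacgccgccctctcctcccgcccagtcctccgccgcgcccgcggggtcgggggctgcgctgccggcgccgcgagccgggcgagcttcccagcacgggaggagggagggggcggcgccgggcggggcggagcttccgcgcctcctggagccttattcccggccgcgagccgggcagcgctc
ERRFI1: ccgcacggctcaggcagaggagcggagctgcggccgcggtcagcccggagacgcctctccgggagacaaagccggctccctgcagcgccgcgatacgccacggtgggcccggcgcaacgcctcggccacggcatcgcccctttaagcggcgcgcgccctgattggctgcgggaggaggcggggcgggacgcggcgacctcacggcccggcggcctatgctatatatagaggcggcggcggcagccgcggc
Both strands were searched for a full CRE (TGACGTCA), an AP-1 site (TGANTCA, where N is any base), the hypoxia response cores ACGTG and GCGTG, the Smad palindrome GTCTAGAC and the CArG box bound by serum response factor. The CRE matched AREG alone among the members searched, from 58 to 65 bases before the start, and is held by 1.64% of 34675 windows of this length. The AP-1 pattern, with no overlap between matches, matched ERBB2 (TGATTCA) and the second start of EGFR (TGAGTCA and TGACTCA), and is held by 6.57% of the windows. The window of ERBB2 (chr17:39687844-39688093) lies partly, and that of the second start of EGFR (chr7:55109589-55109838) wholly, inside the span given above for the gene. The core GCGTG matched AREG, EREG, BTC and the second start of TGFA, against 32.2% of the windows. The core ACGTG (18.5% of the windows), the CArG box (1.17%) and the Smad palindrome (0.179%) matched none of these windows. The matches describe letters in these windows only, and the data hold no measurement of binding there.

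Of the 6 ligand genes, AREG and HBEGF had lower levels in the Smyca knockdown at an unadjusted p under 0.05, and EREG, TGFA and BTC did not reach it. None of the ligands passed edgeR's test of all 6 libraries after adjustment over all genes, whereas DESeq2 called AREG and HBEGF (adjusted p of 0.0147 and 0.0270). NRG1 had 0 counts in all 6 libraries. A count of 0 allows a level of up to 0.182 to 0.200 CPM per library, taking 3 counts as the limit and covering counting error only.

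AREG, a ligand of EGFR known for its role in mammary duct growth, was at 230 normalized CPM in control repeat 1, 146 in repeat 2 and 126 in repeat 3. In the knockdown, it was at 109, 61.4 and 68.3 normalized CPM. Each control library lay above each knockdown library. Its mean level was 167 ± 55.2 in control cells and 79.6 ± 25.8 in the knockdown (SD, n = 3), a ratio of 2.10. In edgeR's quasi-likelihood test the log2 ratio was 1.07 ± 0.29 (SE), with a Benjamini-Hochberg adjusted p of 0.128 and a range of 0.0038 to 0.440 under the alternatives.

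HBEGF, a ligand of EGFR and ERBB4 that binds heparan sulfate, was at 53.2, 33.6 and 18.3 normalized CPM in the control repeats. It was at 21.8, 8.24 and 10.3 normalized CPM in the knockdown repeats. The groups overlapped, because control repeat 3 lay below knockdown repeat 1. The means were 35.0 ± 17.5 and 13.4 ± 7.30 (SD, n = 3), a ratio of 2.61 and a log2 ratio of 1.38 ± 0.45 (SE). The edgeR adjusted p was 0.163, with a range of 0.0056 to 0.471 under the alternatives. With the reads recovered from FPKM in control repeat 2, which held 299 reads of HBEGF in place of 546, the log2 ratio was 1.12 and its p was no longer under 0.05.

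EREG, a broad ligand that activates EGFR and ERBB4, was at 367, 298 and 260 normalized CPM in the control. It was at 223, 199 and 300 normalized CPM in the knockdown. Knockdown repeat 3 lay above control repeats 2 and 3, so the groups overlapped. The log2 ratio was 0.36 ± 0.20 (SE) and the edgeR adjusted p was 0.368, with a range of 0.156 to 0.726 under the alternatives. Over libraries left out, the log2 ratio ranged from 0.22 to 0.54. The unadjusted p in edgeR was under 0.05 without knockdown repeat 3 (0.0267) or control repeat 3 (0.0439). Without knockdown repeat 3 the groups did not overlap, beside 39.3% of all genes in that fit. Although AREG and EREG are neighbours, their ratios differed in size (2.10 and 1.28), and this difference between the genes was not tested.

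TGFA, a ligand of EGFR that many carcinomas make, was at 80.2, 63.0 and 31.2 normalized CPM in control cells and at 42.0, 32.8 and 39.6 in the knockdown. Control repeat 3 was the lowest of the 6 libraries. The log2 ratio was 0.61 ± 0.30 (SE), with an edgeR adjusted p of 0.315 and a range of 0.0173 to 0.710 under the alternatives. As a ratio, the columns of control repeat 2 differed most for TGFA among the members with a higher level in the control, with 1024 counts and 512 reads behind the FPKM value. With the latter, the log2 ratio was 0.29.

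BTC, which also binds ERBB4, was the lowest of the detected members, at 3.33, 3.57 and 8.58 normalized CPM in control cells and 5.84, 6.72 and 4.49 in the knockdown. Here control repeat 3 was the highest library. The log2 ratio was -0.14 ± 0.40 (SE), with an edgeR adjusted p of 0.872. It was 0.11 with the reads recovered from FPKM in control repeat 2, so that no direction was given by these data.

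**Figure D1:**
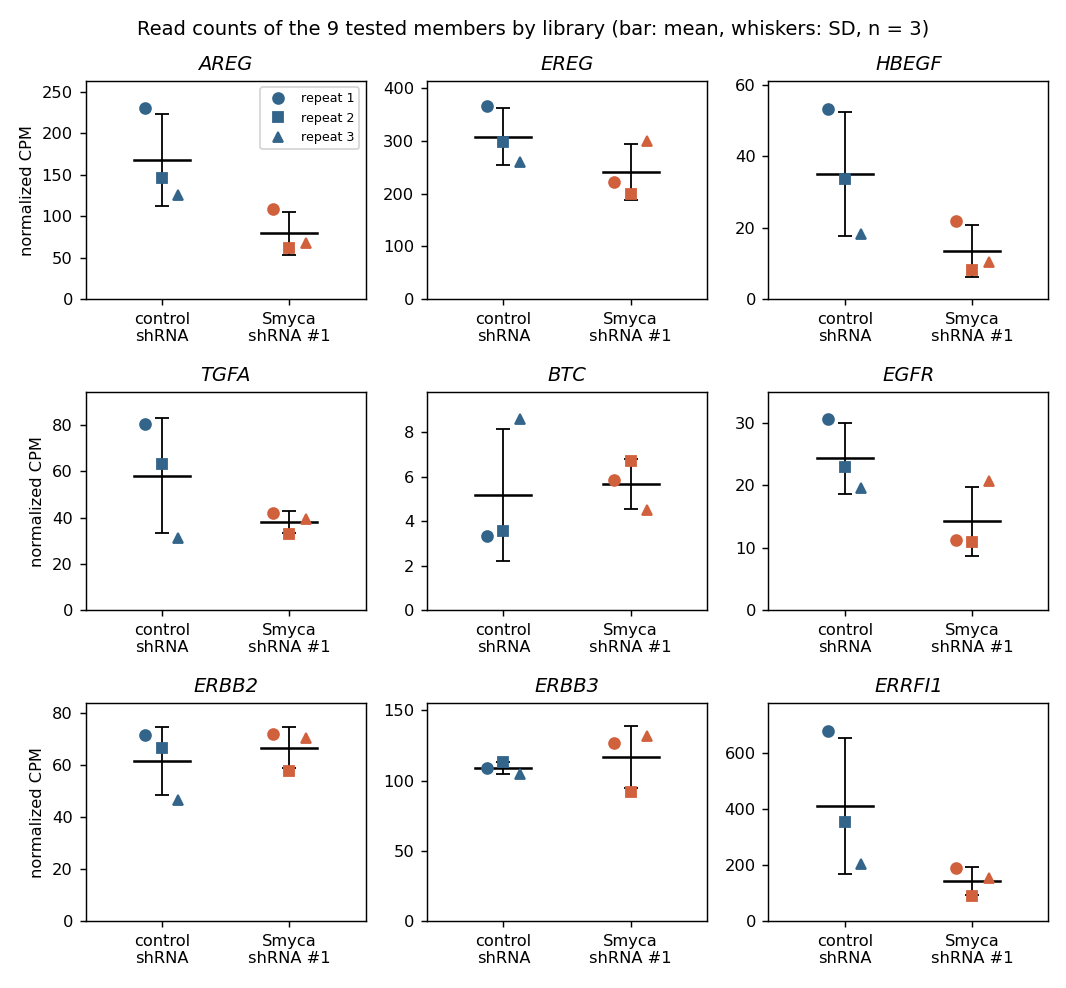
Normalized CPM (vertical axes, from 0, each panel on its own scale) of the 9 detected members in the control shRNA and Smyca shRNA #1 libraries. Points are libraries, with marker shape for the repeat number, bars are means and whiskers are SDs (n = 3). For AREG and ERRFI1 each control point lies above each knockdown point, whereas for the other 7 members the groups overlap.

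Of the receptors, EGFR had a lower level in the knockdown at an unadjusted p under 0.05, and ERBB2 and ERBB3 had ratios near 1. None passed after adjustment. EGFR was at 30.7, 22.9 and 19.6 normalized CPM in control cells and at 11.2, 11.0 and 20.7 in the knockdown. Knockdown repeats 1 and 2 lay below all control libraries and knockdown repeat 3 lay among them. The means were 24.4 ± 5.69 and 14.3 ± 5.53 (SD, n = 3), with a log2 ratio of 0.77 ± 0.29 (SE) and an adjusted p of 0.206 in edgeR. With the reads recovered from FPKM in control repeat 2, the log2 ratio was 0.64 and the p was no longer under 0.05. The antisense gene EGFR-AS1, which overlaps EGFR, had at most 1 count in any library.

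ERBB2, the orphan receptor, was at 71.6, 66.6 and 46.7 normalized CPM in control cells and at 72.2, 57.7 and 70.6 in the knockdown. Control repeat 3 was the lowest library. Its log2 ratio was -0.12 ± 0.19 (SE), with an edgeR adjusted p of 0.768, and it was 0.04 without control repeat 3 and -0.29 with the reads recovered from FPKM in control repeat 2. PGAP3 and MIEN1 overlap ERBB2 on the other strand, with log2 ratios of -0.12 and 0.38.

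ERBB3, the receptor for neuregulins, was at 109, 113 and 105 normalized CPM in control cells and at 127, 91.7 and 132 in the knockdown. The control libraries lay close together, within the range of the knockdown libraries. The log2 ratio was -0.098 ± 0.17 (SE), with an edgeR adjusted p of 0.778. Of the members, ERBB3 had the ratio with the smallest SE, but a p above the threshold does not show that its level was the same in both groups.

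ERRFI1, the feedback inhibitor, had the largest ratio of the 9 members in the fit of all 6 libraries, but HBEGF had the larger one without control repeat 1 or knockdown repeat 1. It was at 679, 354 and 204 normalized CPM in control repeats 1, 2 and 3, and at 190, 90.7 and 156 in the knockdown repeats. Each control library lay above each knockdown library, but control repeat 3 was close to knockdown repeat 1. The means were 412 ± 242 and 146 ± 50.4 (SD, n = 3), a ratio of 2.83. The log2 ratio was 1.502 ± 0.43 (SE), with an adjusted p of 0.137 in edgeR and a range of 0.0008 to 0.443 under the alternatives. With the reads recovered from FPKM in control repeat 2, which held 3681 reads of ERRFI1 in place of 5753, the log2 ratio was 1.31. Without control repeat 1 the log2 ratio was 0.94, and without control repeat 3 it was 1.82. A lncRNA, ENSG00000284747, overlaps ERRFI1 on the other strand and had at most 22 counts, against 1432 to 10999 counts of ERRFI1.

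Together, 0 of the 9 members tested were called by edgeR, where a call needed an adjusted p under 0.05 and a ratio of 1.5 or more, or of 0.66 or less. Among all 15075 genes tested, this call was made for 4 genes, or 0.0265%. At an unadjusted p under 0.05 there were 4 members (AREG, HBEGF, EGFR and ERRFI1), all with the higher level in the control, against 19.2% of all genes in either direction and 10.4% with the higher level in the control. The groups of 2 members did not overlap, both with the control above, against 24.8% of all genes in either direction and 12.4% with the control above. The ratio alone reached 1.5 or 0.66 for 5 members (the former 4 and TGFA), against 21.2% of all genes. The median log2 ratio of the 9 members was 0.61 and that of all genes was 0.04. DESeq2 called 3 members (AREG with an adjusted p of 0.0147, HBEGF with 0.0270 and ERRFI1 with 0.0076), against 6.16% of all genes with an adjusted p in that test. In bulk RNA, fewer cells that express a gene and less RNA per cell cannot be told apart.

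**Figure D2:**
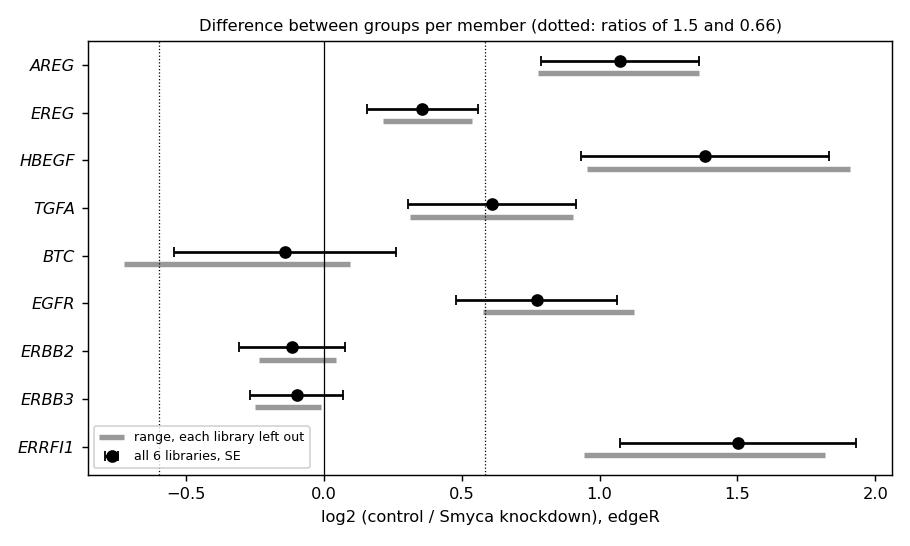
Log2 ratio of control over Smyca knockdown (horizontal axis) for the 9 tested members from edgeR. Points with whiskers are the fit of all 6 libraries with its SE, gray bars are the range when each library was left out in turn, and dotted lines mark ratios of 1.5 and 0.66. AREG, EREG, HBEGF, TGFA, EGFR and ERRFI1 stay above 0 in all of these fits, ERBB3 stays below 0, and the ranges of BTC and ERBB2 include 0.

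The libraries of a group were not alike for these genes. Control repeat 1 had the highest level of AREG, EREG, HBEGF, TGFA, EGFR and ERRFI1 among all 6 libraries. Control repeat 3 had the lowest control level of these 6 genes and the highest level of BTC. Leaving out control repeat 3 gave 4 members past the edgeR call (AREG with an adjusted p of 0.0279, HBEGF with 0.0300, TGFA with 0.0173 and ERRFI1 with 0.0156). Yet the same exclusion raised the number of genes called in all from 4 of 15075 to 1628 of 15449. Leaving out any of the other 5 libraries gave 0 members called.

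Across the 6 libraries, AREG, HBEGF and ERRFI1 followed each other closely. Pearson's r of log2(normalized CPM + 1) was 0.978 for AREG and HBEGF, 0.966 for HBEGF and ERRFI1 and 0.955 for AREG and ERRFI1. EREG followed EGFR (r = 0.971) more closely than its neighbour AREG (r = 0.694). TGFA and BTC ran in opposite directions (r = -0.908), and ERBB2 and ERBB3 had r = 0.621. These values describe 6 libraries that share the group difference and library composition, and carry no test. Hypoxia-response genes and immediate-early genes, summed over each list, also differed between the libraries. The 10 hypoxia genes summed to 5099, 2714 and 1570 normalized CPM in control cells and 1998, 1906 and 1507 in the knockdown, so that control repeat 1 was highest, as for ERRFI1. SLC2A1 made up most of each sum, at 3023, 1630 and 1102 in control cells and 1562, 1610 and 1102 in the knockdown. Its log2 ratio was 0.43, whereas the median of the list was 1.26, with all 10 genes above 0. The 12 immediate-early genes summed to 2880, 2248 and 4018 in control cells and 1148, 842 and 951 in the knockdown, with control repeat 3 highest. In control repeat 3, EGR1 and JUN made up the largest part of the sum, at 1362 and 930 normalized CPM. FOSL1, IER3, DUSP1 and ZFP36 were highest in control repeat 1 and the other genes of the list in control repeat 3. The 8 mesenchymal markers summed to 1601, 1158 and 830 in control cells and 574, 599 and 768 in the knockdown. The part of any of these in the members' ratios was not tested.

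**Figure D3:**
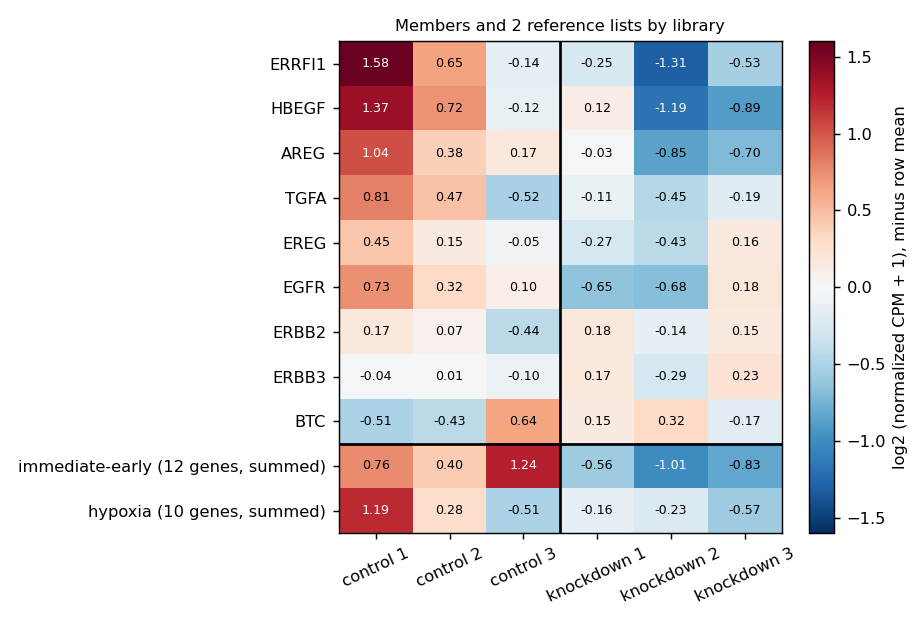
Log2(normalized CPM + 1) of the 9 detected members and of the summed immediate-early and hypoxia genes in each library, minus the mean of each row, with the value in each cell. ERRFI1 runs from 1.58 in control repeat 1 to -1.31 in knockdown repeat 2. Control repeat 3 has the highest immediate-early value (1.24) but values below the row mean for ERRFI1, HBEGF, TGFA and EREG. The summed values follow the genes with the most counts, above all SLC2A1 in the hypoxia list.

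Levels of different genes were compared per length, as normalized CPM per kilobase of the gene length behind the authors' FPKM values. In the control, ERRFI1 had the highest mean level (276 ± 163), followed by AREG (170 ± 56.0) and EREG (142 ± 25.1), whose ranges overlapped (SD, n = 3 for each). ERBB3 was next at 66.4 ± 2.54, below all EREG values, and overlapped TGFA at 51.6 ± 22.02. ERBB2 (28.4 ± 6.08) and HBEGF (25.1 ± 12.5) overlapped in turn. EGFR was at 8.15 ± 1.90 and BTC at 3.0 ± 1.72, and neither overlapped the gene before it. In the knockdown, EREG had the highest mean level (111 ± 24.3), followed by ERRFI1 (97.6 ± 33.8), AREG (80.7 ± 26.1) and ERBB3 (71.1 ± 13.3), each overlapping the next. TGFA (33.8 ± 4.24) and ERBB2 (30.8 ± 3.66) overlapped, and so did HBEGF (9.64 ± 5.23), EGFR (4.78 ± 1.85) and BTC (3.30 ± 0.652). With the length of the Ensembl canonical transcript in place of the authors' length, AREG had the highest mean in both groups. In the control it was at 136, against 133 for ERRFI1, and their ranges overlapped. ERBB3 was then at 19.4, and HBEGF (14.9) lay above TGFA (14.1) and ERBB2 (13.5) in the control. In the knockdown, ERBB2 (14.7) lay above TGFA (9.27), and BTC (2.14) lay above EGFR (1.44).

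**Figure D4:**
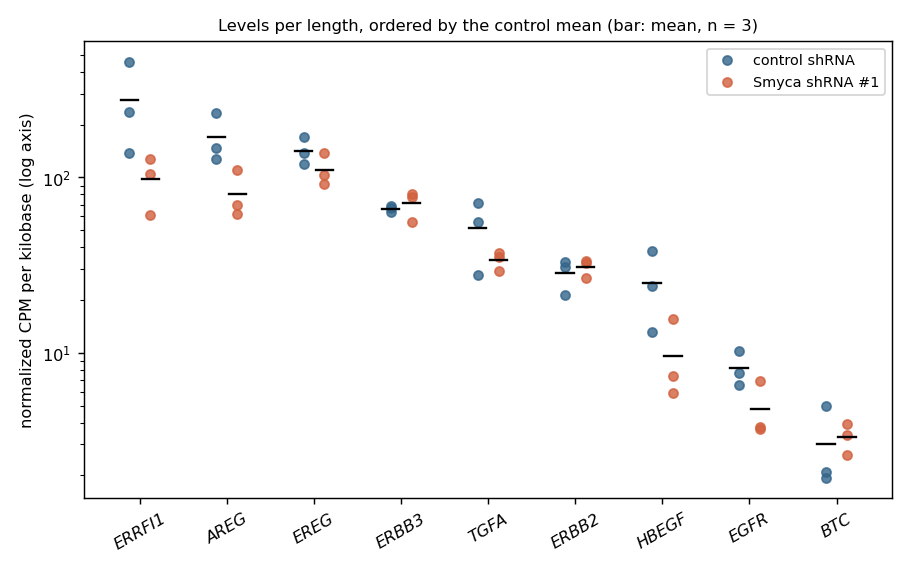
Level per length of the 9 detected members (vertical axis, normalized CPM per kilobase of the authors' length, log scale), ordered by the control mean. Points are libraries and bars are means (n = 3). ERRFI1, AREG and EREG lie at the top in both groups, and EGFR lies below ERBB3 and ERBB2 in each library.

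The makeup of the family was also compared within each library, by ratios that were chosen after the values had been seen and are given as a description. The level of ERBB3 was 6.50, 9.0 and 9.74 times that of EGFR in the control libraries and 20.5, 15.2 and 11.6 times in the knockdown libraries. The groups did not overlap, and the reads recovered from FPKM in control repeat 2 gave 9.92 for that library. ERBB2 was 3.22, 4.01 and 3.28 times EGFR in control cells and 8.85, 7.25 and 4.71 times in the knockdown. The level of AREG was 1.38, 1.079 and 1.07 times that of EREG in control cells and 1.077, 0.677 and 0.500 times in the knockdown, and knockdown repeat 1 overlapped the control. Of the summed level of the 5 detected ligands, AREG made up 45.4%, 40.3% and 43.6% in control cells and 41.0%, 32.2% and 27.4% in the knockdown. EREG made up 32.9%, 37.4% and 40.8% in control cells and 38.1%, 47.6% and 54.7% in the knockdown. These shares and the AREG to EREG ratio depend on the lengths used. With canonical transcript lengths the mean ratio was 2.0 in control libraries and 1.28 in knockdown libraries, so that AREG had the higher mean in both groups. The summed ligand level was 514, 368 and 293 normalized CPM per kilobase in control cells and 270, 193 and 253 in the knockdown. The summed level of the 3 receptors was 110, 107 and 91.8 in control cells and 114, 86.1 and 120 in the knockdown. Both sums use the authors' lengths.

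**Figure D5:**
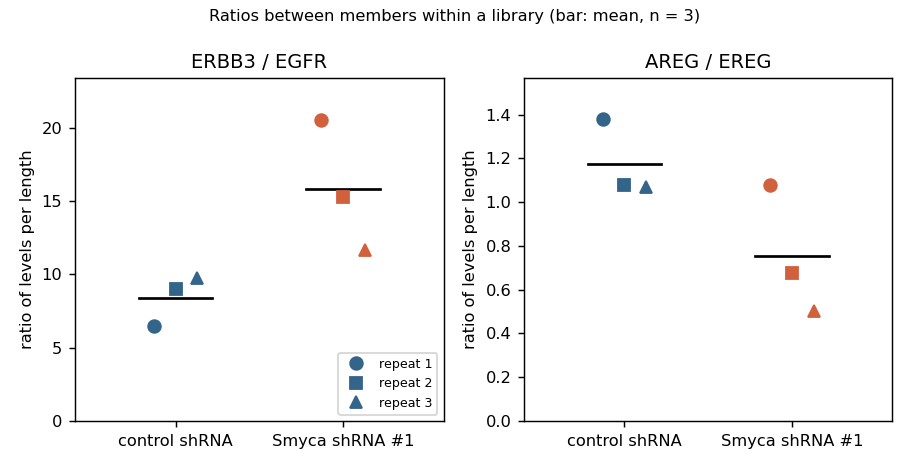
Ratio of the level per length of ERBB3 to that of EGFR (left) and of AREG to that of EREG (right) in each library, with vertical axes from 0. Points are libraries and bars are means (n = 3). The ERBB3 to EGFR ratio runs from 6.50 to 9.74 in control cells and from 11.6 to 20.5 in the knockdown, whereas the AREG to EREG ratio overlaps between the groups.

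The genes whose pattern was nearest to that of EREG, the ligand with the highest mean level over all libraries by the authors' lengths (127 normalized CPM per kilobase, against 125 for AREG, which is the higher by canonical lengths), were BCL10 (r = 0.994), PARD3 (r = 0.992) and TMTC2 (r = 0.989) among 9531 genes with a mean of at least 10 normalized CPM. Those nearest to ERBB3, the receptor with the highest level, were MOB1A (r = 0.972), VTI1B (r = 0.959) and TSG101 (r = 0.957). With 6 libraries and this many genes, high values of r are found for many genes, and they are given without a test.

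The nearest protein-coding genes on either side of the members were also examined. EPGN, the ligand gene beside EREG, had at most 4 counts and was not tested. PFDN1 beside HBEGF had a log2 ratio of 0.19, FAM136A beside TGFA -0.27, SEC61G and LANCL2 beside EGFR 0.26 and -0.52, and GRB7 and PNMT beside ERBB2 0.10 and -0.52. RPS26 and PA2G4 beside ERBB3 had log2 ratios of -0.22 and -0.25, and WRN and FUT10 beside NRG1 had 0.06 and -0.38. SLC4A9, ADD2 and PARM1 had too few counts to be tested. On the sides of ERRFI1, PARK7 had a log2 ratio of -0.23 and SLC45A1 one of 1.75 ± 0.53 (SE, adjusted p = 0.144 in edgeR). SLC45A1 was a weakly expressed gene at 3.27 normalized CPM in control cells and 0.968 in the knockdown. The groups of SLC45A1 and PFDN1 (control above) and of PARK7 and FUT10 (control below) did not overlap, beside 24.8% of all genes. SLC45A1 lies 291804 bases from ERRFI1. None of these neighbours passed the adjusted test in edgeR.

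Other genes of the pathway were taken from 4 lists by role. Of 36 genes, 28 were tested and 0 were called by edgeR, while 3 reached an unadjusted p under 0.05 (19.2% of all genes did) and DESeq2 called 2, RHBDF1 and PIK3R1 (6.16% of all genes). The groups of 5 genes did not overlap, 1 with the control above and 4 with the control below, beside 24.8% of all genes. The median log2 ratio was 0.09, beside 0.04 for all genes. Of the genes named below, ADAM10, ADAM15, ADAM17 and PTPN11 were chosen after their values had been seen.

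Of 6 other ligand and receptor genes, only NRG2 and NRG4 were tested. Both encode neuregulins and were low, with log2 ratios of 0.41 ± 0.65 and 0.27 ± 0.31 (SE). EGF had at most 5 counts, ERBB4 at most 4 and NRG3 had 0 in each library. ERBB3 was thus detected while NRG1, NRG3 and ERBB4 were at or near the detection limit.

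Of 9 genes for shedding, 7 were tested and 2 reached an unadjusted p under 0.05, RHBDF1 with a higher and ADAM15 with a lower level in the control. RHBDF1, or iRhom1, is needed with iRhom2 for the maturation of the sheddase ADAM17. It was at 220, 135 and 58.1 normalized CPM in control cells and at 62.0, 44.3 and 41.1 in the knockdown. As for HBEGF, control repeat 1 was highest and control repeat 3 overlapped the knockdown. Its log2 ratio was 1.49 ± 0.42 (SE), with an adjusted p of 0.133 in edgeR, 0.0079 in DESeq2 and 0.0008 to 0.443 over all alternatives. TIMP3, an inhibitor of ADAM17, had a log2 ratio of 0.87 ± 0.52 (SE, adjusted p = 0.395 in edgeR). ADAM17 itself, the main sheddase of AREG, HBEGF and TGFA, had a log2 ratio of 0.20 ± 0.35 (SE). The groups of ADAM10 and ADAM15 did not overlap, with log2 ratios of -0.25 ± 0.15 and -0.33 ± 0.14 (SE) and edgeR adjusted p-values of 0.411 and 0.258.

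Of 11 regulators of the receptors, 9 were tested and 0 reached an unadjusted p under 0.05 in edgeR. The largest ratios were those of CBLB, a ubiquitin ligase that helps to degrade active receptors, and LRIG1, a membrane protein that restrains them. Their log2 ratios were 0.50 ± 0.27 and 0.41 ± 0.21 (SE), with edgeR adjusted p-values of 0.340 and 0.330. DESeq2 called 0 of them. ERRFI1 thus had a larger log2 ratio than the other receptor inhibitors examined, and the difference between these genes was not tested.

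Of 10 adaptor and signaling genes downstream of the receptors, all were tested and 1 reached an unadjusted p under 0.05. This was PIK3R1, the regulatory subunit of PI3K, at 24.6, 30.8 and 29.4 normalized CPM in control cells and 57.5, 46.1 and 42.7 in the knockdown. Each control library lay below each knockdown library, with a log2 ratio of -0.79 ± 0.17 (SE) and an adjusted p of 0.111 in edgeR, 0.0064 in DESeq2 and up to 0.440 over all alternatives. SOS2, an exchange factor for RAS, had a log2 ratio of 0.46 ± 0.21 (SE, adjusted p = 0.282 in edgeR) and non-overlapping groups. The groups of PTPN11 did not overlap either, with the control below (log2 ratio -0.34 ± 0.20, SE).

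Targets of ERK signaling stood beside these. Beside the counts of these further lists, the shares of all genes were 19.2% at an unadjusted p under 0.05 in either direction, 12.4% with all control libraries higher and 6.16% called by DESeq2. Of 10 output genes of ERK, 0 were called by edgeR and 4 reached an unadjusted p under 0.05, with DUSP6, SPRY2 and EPHA2 higher and CCND1 lower in the control. DUSP6, a phosphatase that switches ERK off, was at 118, 122 and 97.8 normalized CPM in control cells and at 81.0, 44.2 and 51.4 in the knockdown. Its log2 ratio was 0.94 ± 0.23 (SE), with an adjusted p of 0.123 in edgeR, and that of EPHA2, a receptor tyrosine kinase gene, was 0.63 ± 0.24 (adjusted p = 0.210). DESeq2 called 1 of the 10, DUSP6 (adjusted p = 0.0151, with 0.0072 to 0.440 over all alternatives). SPRY2 and CCND1 were named here after their values had been seen. The median log2 ratio of the list was 0.25.

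The 12 immediate-early genes that EGF and many other stimuli induce were all higher in each control library than in each knockdown library, with a median log2 ratio of 1.76. edgeR called 3 of them, JUN, DUSP1 and ZFP36, and DESeq2 called 12. The list was chosen with earlier results of these data known, so these counts are a description. JUN, a subunit of AP-1, was lower in the knockdown by a ratio of 3.75 (log2 ratio 1.91 ± 0.20, SE, adjusted p = 0.0312 in edgeR). Those for DUSP1, a phosphatase, and ZFP36, which destabilizes mRNAs, were 4.49 and 4.87, both with an adjusted p of 0.0312. Under the alternatives the adjusted p reached 0.344 for JUN and 0.297 for DUSP1 and ZFP36, and with the replicate block, or without control repeat 1, knockdown repeat 1 or knockdown repeat 2, no gene was called by edgeR. These genes also respond to stress and handling, and their part in the values of the ligands was not tested. Of the 10 hypoxia genes, 0 were called by edgeR, 7 reached an unadjusted p under 0.05 and DESeq2 called 6. NDRG1 and ADM had the largest log2 ratios, 3.44 ± 1.03 and 2.70 ± 0.56 (SE). Over libraries left out they ranged from 2.37 to 4.58 and from 1.79 to 3.09. The groups of NDRG1 overlapped and DESeq2 did not call it (adjusted p = 0.0686), whereas it called ADM (adjusted p = 1.9e-05). Of the 8 mesenchymal markers, 0 were called and 6 reached an unadjusted p under 0.05, with ANXA1 and LGALS1 at log2 ratios of 1.51 ± 0.24 and 1.12 ± 0.32 (SE), and DESeq2 called 3. Of the 13 markers of gut, liver and epithelia in general, 7 were tested, 0 were called by edgeR or DESeq2 and 2 (VIL1 and LGALS4) reached an unadjusted p under 0.05. This list, with the general epithelial genes CDH1 and EPCAM included, summed to 702 to 1052 normalized CPM in control libraries and 1035 to 1064 in knockdown libraries. VIL1, which encodes the microvillus protein villin, had a log2 ratio of -0.62 ± 0.19 (SE), with the control below the knockdown in all libraries. The largest log2 ratios were those of CDH17 and LGALS4 (-1.23 ± 0.64 and 1.14 ± 0.42, SE), which had at most 67 and 21 counts in any library. Of the 6 luminal markers, 3 were tested and 0 were called by either tool, with 1 at an unadjusted p under 0.05, and KRT8 and KRT18 had log2 ratios of -0.47 ± 0.17 and -0.05 ± 0.16 (SE).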

How the data were processed

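RNA was sequenced from 3 control shRNA and 3 Smyca shRNA #1 libraries of MDA-MB-231 cells, grouped by their labels. Per the study's methods and the labels, the authors made strand-specific, paired-end libraries from RNA depleted of rRNA, aligned them with TopHat2 2.0.12 (GRCh38) and counted reads per gene with HTSeq. RNA extraction is given as Trizol in the labels and as a column kit in the methods. The authors deposited a raw read count and an FPKM value for each of 58302 Ensembl genes in each library. Only counts were tested. The FPKM values gave the gene lengths and the reads behind control repeat 2, where 100% of 23593 genes gave whole reads within 0.01, a total of 16759253. With these reads, 10 genes were called. In that library, 3357 genes had a count of 0 and an FPKM above 0.

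Symbols came from GENCODE release 44 (57532 of 58302 identifiers). The quasi-likelihood test of edgeR 4.0.16 (R 4.3.3) was run on the counts after TMM normalization and filterByExpr, with Benjamini-Hochberg adjustment over all genes tested. As in the study's criteria, a call needed an adjusted p under 0.05 and a control/knockdown ratio of 1.5 or more, or of 0.66 or less. The study's DESeq was not used here. Log2 ratios are control over knockdown, and the SE follows from the F statistic. The biological coefficient of variation was 25.2%. The limit for a count of 0 covers counting error only.

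Alternatives were RLE size factors, library totals, the 1-count filter alone, a minimum of 10 counts per library, the replicate block, each library left out, the reads behind FPKM of control repeat 2 and DESeq2 1.42.0. Canonical transcript lengths were tried later, once values were known. The scripts were tested on simulated data. The members and lists were chosen with earlier results of these data known. Named genes were the members, the called genes of each list or otherwise the 2 with the largest absolute log2 ratio, the 3 genes nearest in pattern to the highest ligand and receptor, the neighbours, MIR23AHG, JUN and the markers. The marker lists leave out 1 gene, which is not reported here.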

Additional observations from a re-analysis of the deposited data

How the results depend on the processing

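Of 117 log2 ratios of members under alternatives, 103 kept their direction and their side of the threshold, 10 passed the call and 4 changed sign. The sign changed for BTC (-0.14) with the reads behind FPKM of control repeat 2 (0.1101), and over libraries left out BTC ranged from -0.72 to 0.09, with 0.0947 without control repeat 1 and 0.0621 without control repeat 2. ERBB2 (-0.12) ranged from -0.23 to 0.04 over libraries left out, with 0.0432 without control repeat 3. Members called numbered 0 in the main edgeR fit and 3 in edgeR with no filter beyond 1 count (AREG, HBEGF and ERRFI1). They numbered 3 with DESeq2 (the same 3 genes) and 0 to 4 in edgeR with a library left out. Members at an unadjusted p under 0.05 numbered 4 in the main fit, beside 19.2% of all genes. They numbered 5 with no filter beyond 1 count (TGFA added, beside 13.2% of all genes). With the reads behind FPKM of control repeat 2 they numbered 2 (AREG and ERRFI1, beside 20.4%). With a library left out they numbered 2 to 7, the 2 arising without control repeat 1 or knockdown repeat 2 (11.2% and 10.8% of all genes). The 7 arose without control repeat 3 (29.6%). Members with no overlap numbered 2, against 3 with library totals (EGFR added) and 2 to 6 with a library left out, with 4 without knockdown repeat 3 (39.3% of all genes, against 24.8% with all libraries) and 6 without control repeat 3 (49.2%). Pathway genes called numbered 0, against 2 with no filter beyond 1 count, 2 with DESeq2 and 0 to 4 with a library left out, the 4 (RHBDF1, PIK3R1, LRIG1 and TIMP3) without control repeat 3. Genes called in all numbered 4 of the 15075 tested in the main fit. They numbered 916 of 30409 with no filter, 870 of the 14132 with an adjusted p in DESeq2 and 1628 of 15449 without control repeat 3. They numbered 8 with library totals, 10 with the reads behind FPKM of control repeat 2, 0 with the replicate block and 0 to 1628 with a library left out. The cause was not tested. With canonical transcript lengths, the mean AREG to EREG ratio moved from 1.18 to 2.0 in control cells and from 0.752 to 1.28 in the knockdown, and ERBB3 to EGFR moved from 8.41 to 8.15 and from 15.8 to 15.3. Same-numbered libraries had correlations of deviations of 0.0533, 0.0968 and 0.0291, so the numbers were not shown to pair the samples. With the replicate block, 0 members were called and 4 reached an unadjusted p under 0.05, and log2 ratios were 1.07 for AREG, 1.38 for HBEGF, 1.41 for ERRFI1 and 0.81 for EGFR. NRG1 and the genes with few counts are limited by depth.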
